A study of Sus scrofa with 8 samples.

Results

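The genes described here are the WNT ligands of the pig, their FZD and LRP receptors, the secreted antagonists, the R-spondin system and a few genes at the end of the pathway, measured by RNA-seq in the endometrium on day 14. Members were taken by name: transcripts whose Entrez gene has a pig symbol of WNT, FZD, DKK, SFRP or RSPO followed by a digit, or is AXIN2, LRP5, LRP6, WIF1, FRZB, LEF1, TCF7, LGR4, LGR5 or PORCN. Of 51 such symbols, 45 were matched among the 21064 genes of the tables, and DKK4, FZD1, FZD8, RSPO1, SFRP4 and WNT6 were not analysed here. Where a gene had several transcripts, the one with most reads on average was used. The members are 18 ligands, PORCN, 10 receptors, 8 antagonists, 5 genes of the R-spondin system and 3 genes that are a target or a transcription factor of the pathway.

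The pregnant group consisted of 4 German Landrace gilts inseminated with Pietrain semen 24 h and 36 h after hCG. The 4 control gilts received, in place of semen, only the supernatant of centrifuged semen from that same boar and were studied on day 14 of the cycle. All 8 animals were prepuberal and had their ovulation synchronised with 750 IU of PMSG and, 72 h later, 500 IU of hCG. Endometrium of pregnant animals was cut from the hyperemic zones where embryos attach, and control endometrium from comparable places, so pregnancy and the choice of zone cannot be told apart. RNA of 3 places in 1 horn was pooled for each animal, which makes a library 1 animal.

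WNT proteins are lipid-bearing secreted signals. PORCN attaches the lipid and WLS carries the ligand to the surface, where it binds a Frizzled (FZD) receptor, alone or with the co-receptor LRP5 or LRP6. In the beta-catenin branch the receptor complex stops the destruction of beta-catenin, which then acts with LEF1 and TCF proteins on target genes such as AXIN2. DKK1 blocks LRP5 and LRP6, SFRP proteins, FRZB and WIF1 bind the ligands, and R-spondins acting through LGR4 and LGR5 keep Frizzled receptors on the surface. In the mouse uterus, Wnt7a in the luminal epithelium is needed for gland formation, and Wnt4 in the stroma for decidualization.

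Total counts per library ran from 28035007 to 41016150, and levels are in CPM, which are counts brought to the same depth by TMM scaling, given as mean ± SD (n = 4 per group). Log2 changes are pregnant over control ± SE. Control replicate 4 stood apart from its group: in a principal component analysis of the 500 transcripts with most variance, pregnant libraries scored 35.62 to 42.1, control replicates 1 to 3 −46.11 to −42.46 and control replicate 4 −27.82. Across all transcripts 2111 passed as higher and 1898 as lower, against 1661 and 3284 when libraries were scaled by their totals alone, which shifted the median log2 change of all transcripts by −0.13. The tissue also differed in markers of its cell types. The summed level of 8 epithelial markers was 1624 to 2167 CPM in pregnant and 2295 to 3436 CPM in control endometrium (1 higher, 4 lower). Without KRT8 the other 7 summed to 1393 to 1827 CPM in pregnant and 1231 to 1877 CPM in control endometrium. These sums hold opposite changes. CLDN4 rose, with a mean of 1024 CPM in pregnant and 492.5 CPM in control endometrium, while KRT18, KRT19 and ESRP1 fell. The sum of 8 stromal markers was 16245 to 23762 CPM in pregnant and 24883 to 29630 CPM in control endometrium (2 higher, 2 lower). Without COL3A1 it was 9374 to 12531 CPM in pregnant and 10526 to 12968 CPM in control endometrium, and the median log2 change of the stromal list was 0.11. For 5 smooth muscle markers the sum was 408 to 614 CPM in pregnant and 659 to 1064 CPM in control animals, with 3 lower. The 6 endothelial markers summed to 938 to 1258 CPM in pregnant and 682 to 1149 CPM in control animals, with 2 higher. All 6 T and NK cell markers rose, with a sum of 63.7 to 126 CPM in pregnant and 13.3 to 38.7 CPM in control animals. All 3 matched macrophage markers rose too, with a sum of 276 to 364 CPM in pregnant and 127 to 189 CPM in control animals. Not matched were CDH1 and KRT7 (epithelium), COL1A1 and PDGFRB (stroma), MYH11 (smooth muscle), CDH5 (endothelium), CD68 and CD163 (macrophage) and CYP19A1 (conceptus). Of 6 genes listed as markers of the conceptus, CDX2 had 4 reads in pregnant and 0 in control animals. CYP17A1 had 7 in pregnant and 11 in control animals. GATA3 rose, with a mean of 6.47 CPM in pregnant and 2.74 CPM in control endometrium. GATA2 fell, with 80.1 CPM in pregnant and 142.9 CPM in control endometrium. IFNG, which immune cells also make, had 26 reads in pregnant and 4 in control animals without overlap, too few for the test. TFAP2C averaged 3.21 CPM in pregnant and 3.10 CPM in control endometrium, a log2 change of 0.05 (edgeR adjusted p = 0.931). GATA2, GATA3 and TFAP2C were thus present in control endometrium, which holds no conceptus, and do not mark the conceptus alone. The part of these cell types in the results below was not tested, and in whole tissue fewer cells of a type and less RNA per cell cannot be told apart.

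Pregnant endometrium had far more WNT7B mRNA than control endometrium. Pregnant animals had less mRNA of 5 of the 8 Frizzled receptors analysed, of the ligand WNT2 and of the R-spondin receptor LGR4. Of the 39 members with enough reads to be tested, 11 (28.2%) passed edgeR's quasi-likelihood test at a Benjamini-Hochberg adjusted p under 0.05, where 21.3% of all 18783 transcripts passed. WNT7B and FZD4 rose, which is 5.13% of the members against 11.2% of all transcripts. WNT2, FZD2, FZD3, FZD5, FZD6, FZD7, DKK3, SFRP5 and LGR4 fell, 23.1% of the members against 10.1% of all transcripts. The pregnant and control values did not overlap for 10 members (25.6%), a share like the 26.1% among all transcripts. The median log2 change was −0.12 over the tested members and −0.02 over all transcripts. Receptors had the lowest median of the larger roles, −0.54, with 1 of 10 higher and 5 lower, whereas 2 of the 13 tested ligands and 2 of the 8 antagonists passed.

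**Figure D1:**
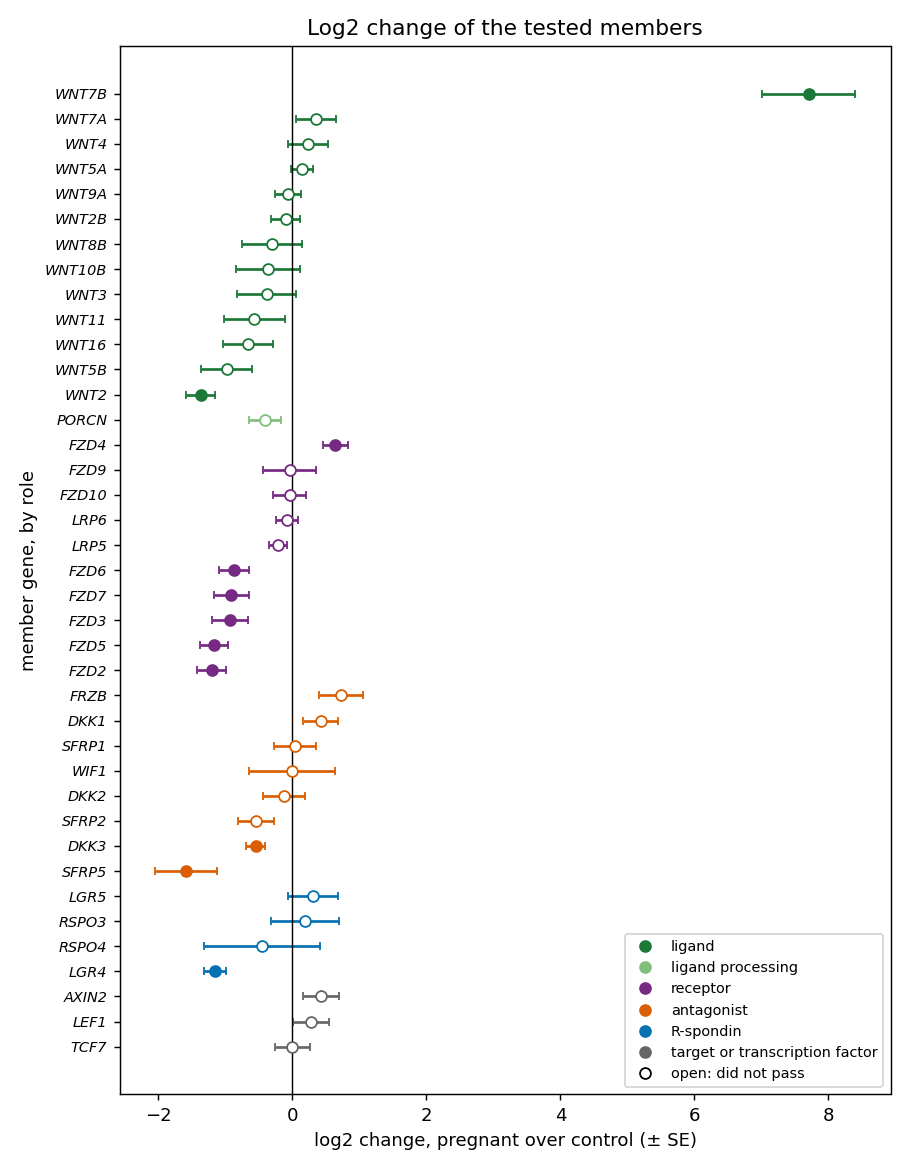
Log2 change of the 39 tested members, pregnant over control, with its SE, grouped by role on the vertical axis; filled points passed the test and open points did not. WNT7B stands at 7.71, and the 10 other members that passed lie between −1.58 and 0.64.

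WNT7B had 30.3, 72.4, 39.2 and 53.4 CPM in pregnant replicates 1 to 4, against 0.712, 0.180, 0.0664 and 0 CPM in control replicates 1 to 4. Every pregnant library lay far above every control library, and the lowest pregnant value was that of replicate 1. The reads behind these values were 6565 in pregnant and 29 in control animals, and 21 of the 29 came from control replicate 1. The log2 change was 7.71 ± 0.70 (edgeR adjusted p = 9.16e-05), a fold of 209, and it was 9.19 without control replicate 1 (adjusted p = 6.32e-05, over all alternatives 1.42e-12 to 0.0023). The gene lies on chromosome 5 (657228 to 707040 of Sscrofa10.2, minus strand, Entrez gene 100626947). Its model has 10 exons, against 4 in that of WNT7A, so the length of the WNT7B model is uncertain. The 8 tested genes within 250 kb had log2 changes between −0.74 and 0.33, with 0 higher and 2 lower.

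WNT2, a ligand of the beta-catenin branch, moved the other way. Its level was 5.70, 3.27, 3.71 and 5.25 CPM in pregnant replicates 1 to 4, against 11.5, 9.07, 12.6 and 12.9 CPM in control replicates 1 to 4. All 4 pregnant values were below all 4 control values. WNT2 fell by 1.36 ± 0.22 on the log2 scale (edgeR adjusted p = 0.00139; Entrez gene 100516839, chromosome 18, 30794198 to 30837546), and control animals had 2.58 times the level of pregnant ones.

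**Figure D2:**
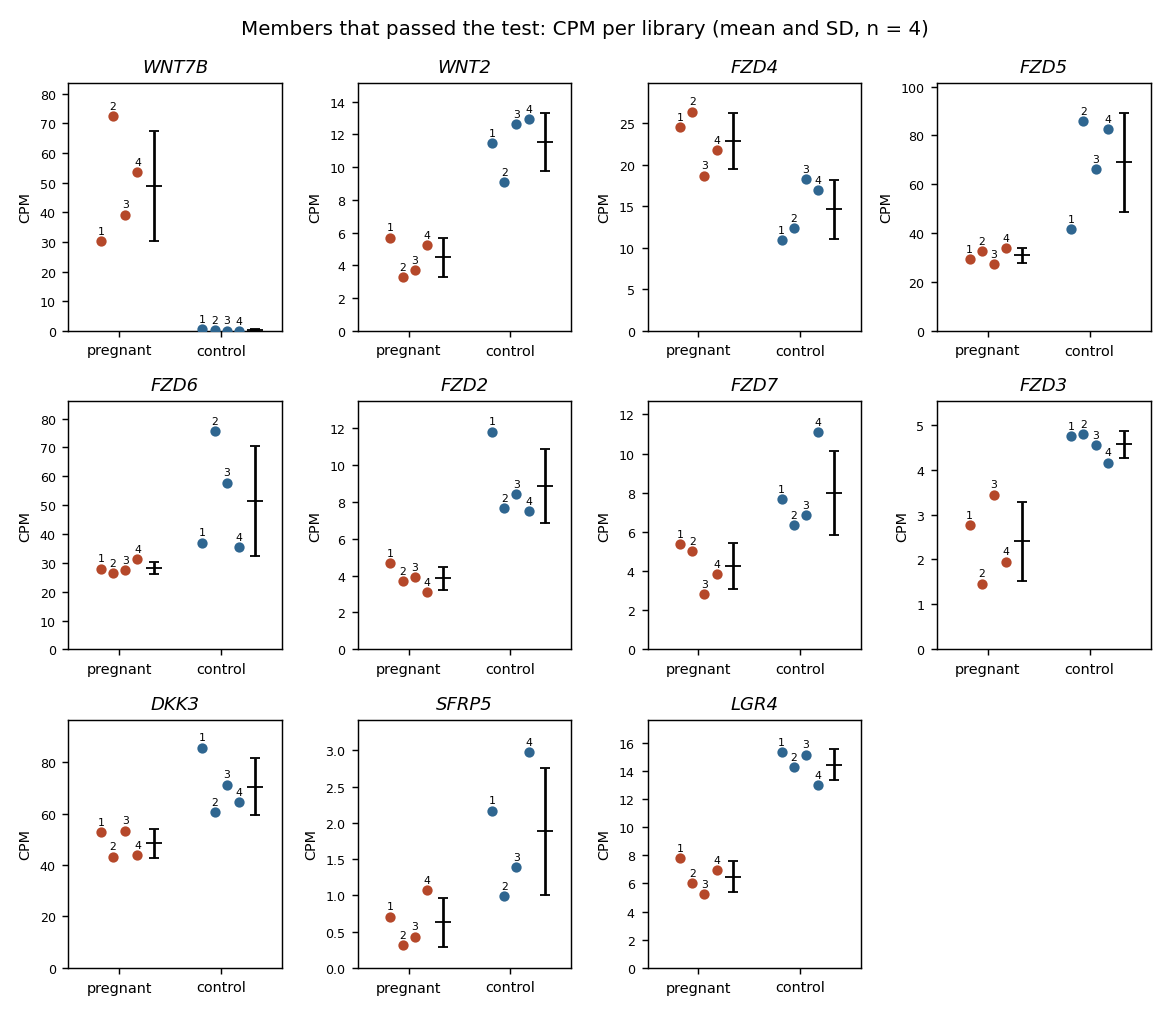
CPM of the 11 members that passed the test in each library (numbers are replicates), with mean and SD of 4 animals; pregnant libraries are on the left of each panel and control libraries on the right. The groups are separate in every panel except SFRP5, where pregnant replicate 4 at 1.07 CPM exceeds control replicate 2 at 0.988 CPM.

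The other ligands kept closer levels. WNT5A, which acts largely through receptors outside the beta-catenin branch, averaged 44.9 ± 8.56 CPM in pregnant and 40.5 ± 5.26 CPM in control endometrium, a log2 change of 0.15 ± 0.16 (edgeR adjusted p = 0.56). WNT7A averaged 11.3 ± 4.17 CPM in pregnant and 8.83 ± 3.14 CPM in control animals, with a log2 change of 0.36 ± 0.30 (edgeR adjusted p = 0.431). WNT7A and WNT7B, close relatives in sequence, therefore had unlike values, 1 without a call and 1 with the largest change of all members. WNT4 (log2 change 0.23), WNT9A (−0.07) and WNT2B (−0.10) had adjusted p of 0.624 to 0.842. WNT11 (−0.56) and WNT16 (−0.66) had adjusted p of 0.418 and 0.246. WNT3, WNT8B and WNT10B averaged under 0.5 CPM in both groups, with log2 changes of −0.38, −0.30 and −0.36.

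WNT5B was the ligand nearest to the threshold. It had 0.425, 0.549, 0.860 and 0.427 CPM in pregnant replicates 1 to 4, against 1.29, 1.14, 1.39 and 0.659 CPM in control replicates 1 to 4. The groups overlapped because control replicate 4, the library that stood apart, lay below pregnant replicate 3. The log2 change was −0.98 ± 0.37 (edgeR adjusted p = 0.0878), and without control replicate 4 it passed at −1.17 (adjusted p = 0.0484; 0.0453 to 0.209 over its alternatives). With library totals alone it passed at −1.11 (adjusted p = 0.0453). The deposited model of WNT5B holds 582 bp in a single exon.

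Too few reads for the test were found for 6 members, 5 of them ligands. WNT9B had 4 reads in pregnant animals, against 33 in controls. WNT8A had 23 reads in pregnant animals, against 3 in controls, and its groups did not overlap. Without the filter on low counts the log2 change of WNT9B was −2.94 (edgeR adjusted p = 0.0496) and that of WNT8A 2.72 (adjusted p = 0.0763). DESeq2 gave −3.10 for WNT9B (adjusted p = 0.0331) and 2.88 for WNT8A (adjusted p = 0.086). WNT10A had 14 reads in pregnant and 35 in control animals, WNT3A 4 in pregnant and 6 in control animals, and WNT1 a single read in all, from a pregnant animal. The last of the 6 was the R-spondin gene RSPO2, with 12 reads in pregnant and 6 in control animals.

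Dividing CPM by transcript length allows the ligands to be set against each other, as far as the deposited models give the true length. The models of WNT10A (497 bp, 1 exon), WNT5B (582 bp, 1 exon) and LGR4 (784 bp, 2 exons) are short and that of TCF7 (8629 bp, 28 exons) is long, so the values per kb, shares and ranks of these genes are uncertain. WNT5A had the highest mean of the ligands by this measure in both groups, with 27.2 ± 5.19 CPM per kb in pregnant and 24.5 ± 3.19 CPM per kb in control endometrium. In pregnant endometrium this order rests on model lengths of 1651 bp for WNT5A and 2337 bp for WNT7B. Before division by length, WNT7B averaged 48.8 ± 18.4 CPM and WNT5A 44.9 ± 8.56 CPM there. In pregnant replicate 2 WNT7B also had the larger share per kb, 39.0% against 37.7% for WNT5A. WNT7B ranked 6th of the 45 members in pregnant endometrium (20.9 ± 7.87 CPM per kb) and 41st in controls (0.103 ± 0.139 CPM per kb). Its share of the summed CPM per kb of the 18 ligands was 18.3, 39.0, 30.2 and 33.97% in pregnant replicates 1 to 4, against 0.550, 0.159, 0.0498 and 0% in control replicates 1 to 4. The share of WNT2 was 4.69 ± 1.27% in pregnant and 16.3 ± 3.73% in control animals, and that of WNT5A 39.6 ± 3.89% in pregnant and 48.5 ± 2.31% in control animals. The ligand sum was 68.4 ± 9.91 CPM per kb in pregnant and 50.7 ± 6.90 in control endometrium. Without WNT7B it was 47.5 ± 8.05 in pregnant and 50.6 ± 6.83 in control endometrium, a difference smaller than the spread between animals.

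**Figure D3:**
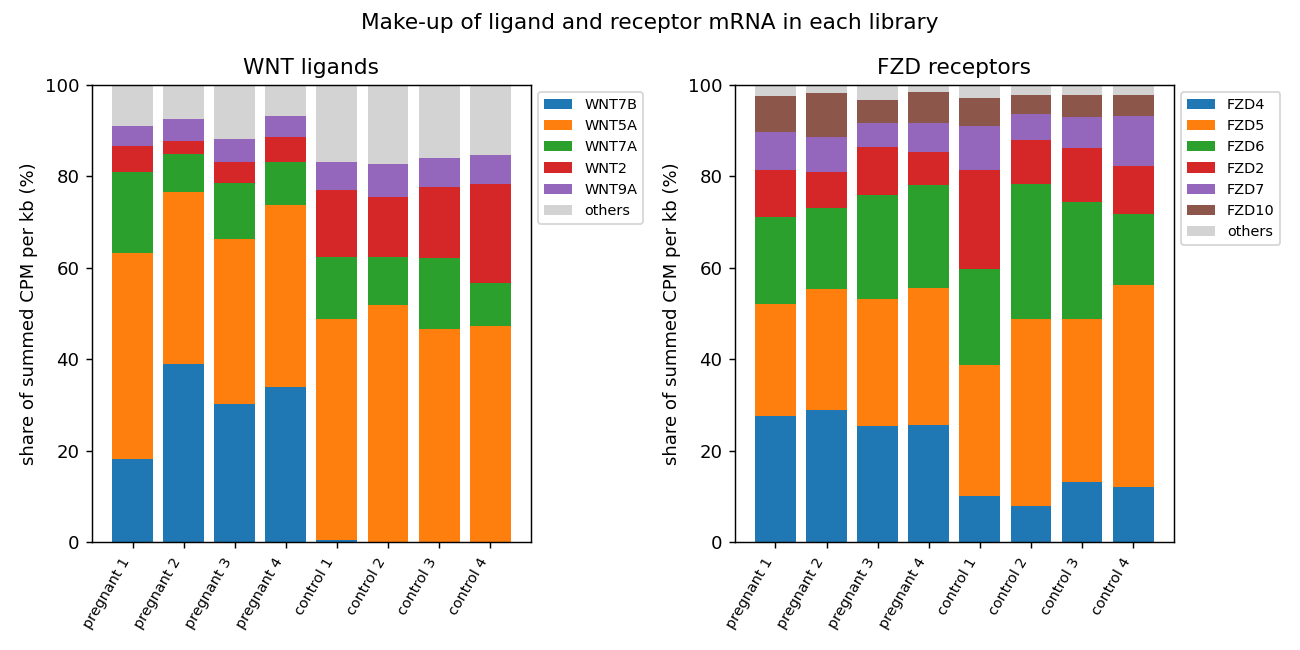
Share of each gene in the summed CPM per kb of the WNT ligands (left) and of the FZD receptors (right), as a stacked bar for each of the 8 libraries, pregnant before control. WNT7B takes 18.3 to 39.0% of the ligand sum in pregnant libraries and at most 0.550% in control libraries, and FZD4 takes 25.5 to 28.9% of the receptor sum in pregnant and 7.90 to 13.2% in control libraries.

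PORCN, which every WNT ligand needs for its lipid, averaged 7.68 ± 2.31 CPM in pregnant and 10.1 ± 2.56 CPM in control endometrium. Its log2 change of −0.40 ± 0.24 did not pass (edgeR adjusted p = 0.272). WLS, the carrier that brings ligands to the cell surface, fell by 0.99 ± 0.14 on the log2 scale (edgeR adjusted p = 8.19e-04), with 241 ± 16.1 CPM in pregnant and 478 ± 82.3 CPM in control endometrium.

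Among the receptors, 5 of the 8 Frizzled genes analysed fell and FZD4 rose. FZD5, a receptor known from epithelia, had 29.4, 32.8, 27.3 and 34.02 CPM in pregnant replicates 1 to 4, against 41.6, 85.9, 66.3 and 82.5 CPM in control replicates 1 to 4. The pregnant values were close together and the control values ranged widely, without overlap. FZD5 fell by 1.16 ± 0.21 on the log2 scale (edgeR adjusted p = 0.0026; Entrez gene 100519058, chromosome 15, 122425804 to 122428979). An unnamed gene model 123 bp away (Entrez gene 100520809) also fell by 1.31 ± 0.27 on the log2 scale. FZD6, best known from planar polarity, had 27.96, 26.4, 27.4 and 31.3 CPM in pregnant replicates 1 to 4, against 37.0, 75.7, 57.8 and 35.3 CPM in control replicates 1 to 4. Its groups did not overlap, with control replicates 1 and 4 near the pregnant values. FZD6 fell by 0.86 ± 0.23 on the log2 scale (edgeR adjusted p = 0.0209; Entrez gene 100157360, chromosome 4, 36662301 to 36697012).

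FZD2 and FZD7, closely related receptors that serve both branches of the pathway, were lower at smaller levels. FZD2 had 4.67, 3.71, 3.90 and 3.11 CPM in pregnant replicates 1 to 4, against 11.8, 7.67, 8.43 and 7.50 CPM in control replicates 1 to 4. Every pregnant value was below every control value. FZD2 fell by 1.20 ± 0.21 on the log2 scale (edgeR adjusted p = 0.00248; Entrez gene 100337669, chromosome 12, 19086024 to 19087227). FZD7 had 5.38, 5.02, 2.81 and 3.84 CPM in pregnant replicates 1 to 4, against 7.66, 6.35, 6.87 and 11.1 CPM in control replicates 1 to 4. The groups did not overlap, and control replicate 4 was the highest. FZD7 fell by 0.91 ± 0.26 on the log2 scale (edgeR adjusted p = 0.0289; Entrez gene 100513691, chromosome 15, 117063373 to 117065104). Without control replicate 4 its log2 change of −0.71 no longer passed (adjusted p = 0.0712; 0.00761 to 0.0782 over its alternatives).

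FZD3, a planar polarity receptor, had 2.76, 1.46, 3.44 and 1.95 CPM in pregnant replicates 1 to 4, against 4.75, 4.79, 4.55 and 4.15 CPM in control replicates 1 to 4. The control values were close together and all above the pregnant ones. FZD3 fell by 0.93 ± 0.27 on the log2 scale (edgeR adjusted p = 0.0327; Entrez gene 100153078, chromosome 14, 13436032 to 13537758). Its value is uncertain, because it shares exonic bases with an unnamed model (Entrez gene 100525487) and its call was lost in 5 of 17 alternatives.

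FZD4, known as the receptor of norrin in blood vessels, was the single receptor that rose. It had 24.6, 26.4, 18.7 and 21.8 CPM in pregnant replicates 1 to 4, against 10.95, 12.3, 18.3 and 16.9 CPM in control replicates 1 to 4. The groups were apart by a narrow margin, between pregnant replicate 3 and control replicate 3. FZD4 rose by 0.64 ± 0.19 on the log2 scale (edgeR adjusted p = 0.0356; Entrez gene 100520319, chromosome 9, 23002161 to 23006631), a fold of 1.56. The call was lost in 7 of 17 alternatives, among them scaling by library totals alone (0.51, adjusted p = 0.101; 0.0118 to 0.104 over its alternatives). An unnamed model whose span overlaps that of FZD4, without shared exonic bases (Entrez gene 100736700), rose by 0.73 ± 0.17 on the log2 scale. The endothelial markers KDR and CLEC14A rose by 0.77 and 0.75 on that scale. The other 4 tested markers of the endothelial list, PECAM1, TEK, ESAM and VWF, did not pass (−0.02, 0.22, 0.34 and 0.43). The part of endothelial cells in the FZD4 value was not tested.

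The remaining receptors did not pass. FZD10 averaged 5.30 ± 1.82 CPM in pregnant and 5.45 ± 0.0878 CPM in control endometrium (log2 change −0.04), and FZD9 0.475 ± 0.200 CPM in pregnant and 0.489 ± 0.0655 CPM in control endometrium (−0.04). The co-receptor LRP6 averaged 12.7 ± 2.59 CPM in pregnant and 13.4 ± 0.948 CPM in control animals, a log2 change of −0.07 ± 0.16 (edgeR adjusted p = 0.793). LRP5 averaged 149 ± 8.63 CPM in pregnant and 173 ± 27.95 CPM in control animals, a log2 change of −0.21 ± 0.13 (edgeR adjusted p = 0.278). LRP5 shares exonic bases with C2H11orf24 on the opposite strand, and the library kit does not mark strand, so its level is uncertain.

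Per kb, the 8 Frizzled genes summed to 37.8, 38.8, 31.1 and 35.9 CPM per kb in pregnant replicates 1 to 4, against 45.6, 66.2, 58.7 and 59.0 CPM per kb in control replicates 1 to 4. No pregnant library reached the lowest control library. FZD4 made up 26.9 ± 1.62% of this sum in pregnant and 10.9 ± 2.34% in control endometrium. FZD5 made up 27.2 ± 2.23% in pregnant and 37.3 ± 6.71% in control endometrium, and FZD6 20.6 ± 2.59% in pregnant and 22.9 ± 6.08% in control endometrium. Of the 8 epithelial markers, KRT8, KRT18, KRT19 and ESRP1 fell in the same libraries (log2 changes −2.10, −1.58, −1.83 and −1.01), CLDN4 rose (1.06), and EPCAM, CLDN7 and ELF3 did not pass (−0.32, −0.34 and 0.28). The part of these cells in the receptor values was not tested.

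The antagonists were dominated by DKK1 in both groups. It held 79.9 ± 0.203% of the summed CPM per kb of the 8 antagonists in pregnant and 76.6 ± 3.43% in control endometrium, and ranked above all other members per kb. Its model is short, with 801 bp against 2376 bp for DKK3 and 2314 bp for FRZB, so its share per kb is uncertain. In CPM it also had the highest mean of the members, 261 ± 27.4 in pregnant and 195 ± 84.2 in control endometrium. DKK1 had 293, 274, 234 and 244 CPM in pregnant replicates 1 to 4, against 235, 119, 131 and 294 CPM in control replicates 1 to 4. Control replicates 1 and 4 lay at the pregnant levels and control replicates 2 and 3 below them, and the log2 change of 0.42 ± 0.26 did not pass (edgeR adjusted p = 0.283).

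DKK3, a DKK relative that does not act on LRP receptors in the manner of DKK1, had 52.9, 43.2, 53.4 and 44.0 CPM in pregnant replicates 1 to 4, against 85.6, 60.4, 71.3 and 64.5 CPM in control replicates 1 to 4. All pregnant values were below all control values. DKK3 fell by 0.54 ± 0.14 on the log2 scale (edgeR adjusted p = 0.0181; Entrez gene 664653, chromosome 2, 50699984 to 50758466). SFRP5, a secreted Frizzled-like protein that binds ligands, was far scarcer, with 0.708, 0.314, 0.430 and 1.07 CPM in pregnant replicates 1 to 4, against 2.17, 0.988, 1.39 and 2.98 CPM in control replicates 1 to 4. Pregnant replicate 4 and control replicate 2 overlapped. SFRP5 fell by 1.58 ± 0.46 on the log2 scale (edgeR adjusted p = 0.034; Entrez gene 100153176, chromosome 14, 118624513 to 118629816). Its call was lost when any of 5 libraries was left out, control replicate 4 among them (−1.27, adjusted p = 0.0846; 0.0081 to 0.0927 over its alternatives).

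FRZB and WIF1, both of which bind ligands outside the cell, depended on a single control library. FRZB had 150, 147, 105 and 122 CPM in pregnant replicates 1 to 4, against 72.4, 44.1, 54.4 and 145 CPM in control replicates 1 to 4. Control replicate 4 lay among the pregnant values and the other controls below them. The log2 change was 0.73 ± 0.33 (edgeR adjusted p = 0.143), and 1.20 without control replicate 4, where it passed (adjusted p = 0.00194; 0.00194 to 0.282 over its alternatives). WIF1 had 3.08, 2.09, 2.51 and 2.11 CPM in pregnant replicates 1 to 4, against 0.814, 6.80, 0.863 and 1.26 CPM in control replicates 1 to 4. Control replicate 2 was the highest of all libraries and the other controls were the lowest. The log2 change of WIF1 was 0.00 ± 0.64 (edgeR adjusted p = 0.999), and 1.32 without control replicate 2 (adjusted p = 0.016; 0.016 to 0.997 over its alternatives). SFRP1, SFRP2 and DKK2 had log2 changes of 0.04, −0.54 and −0.12 and adjusted p of 0.943, 0.181 and 0.827.

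**Figure D4:**
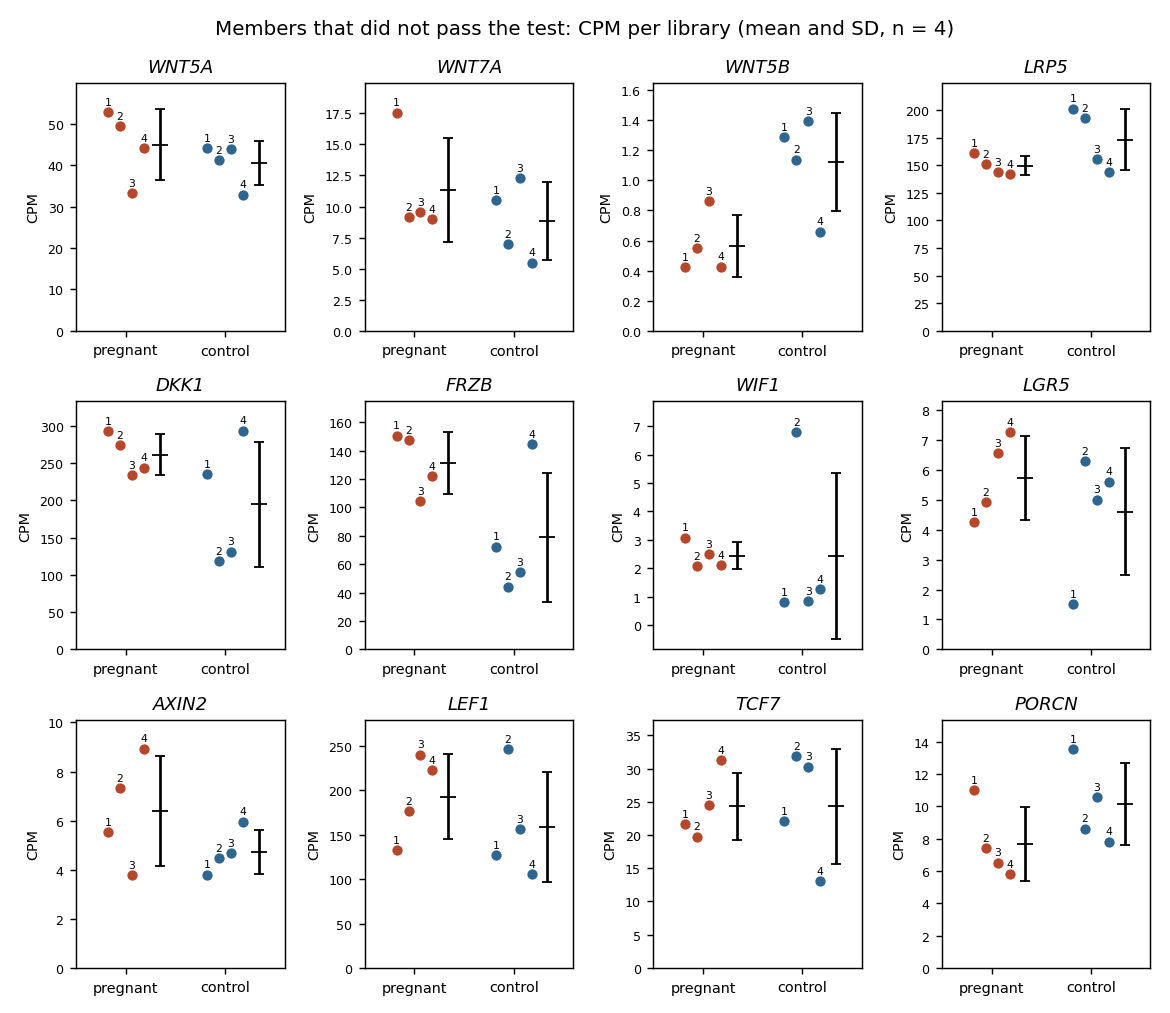
CPM in each library (numbers are replicates) of 12 members that did not pass the test, with mean and SD of 4 animals; pregnant libraries are on the left of each panel and control libraries on the right. Control replicate 4 lies among the pregnant values for FRZB at 145 CPM, and control replicate 2 is the highest library for WIF1 at 6.80 CPM.

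In the R-spondin system 1 of 4 tested genes passed, where 21.3% of all transcripts passed. This gene was the receptor LGR4. It had 7.79, 6.01, 5.23 and 6.93 CPM in pregnant replicates 1 to 4, against 15.4, 14.3, 15.2 and 13.0 CPM in control replicates 1 to 4. The groups were well apart, each with an SD close to 1.1 CPM. LGR4 fell by 1.16 ± 0.16 on the log2 scale (edgeR adjusted p = 6.55e-04; Entrez gene 100518646, chromosome 2, 35455066 to 35512322). The deposited model of LGR4 has 2 exons with 784 bp in all. LGR5, the related receptor that marks stem cells in several epithelia, averaged 5.74 ± 1.401 CPM in pregnant and 4.61 ± 2.12 CPM in control animals, with a log2 change of 0.31 ± 0.37 (edgeR adjusted p = 0.591). The R-spondin ligands were scarce. RSPO3 averaged 0.508 ± 0.307 CPM in pregnant and 0.445 ± 0.112 CPM in control animals (log2 change 0.19), and RSPO4 0.750 ± 0.843 CPM in pregnant and 1.01 ± 0.590 CPM in control animals (−0.45). Neither passed (edgeR adjusted p = 0.825 and 0.758).

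The 3 members at the end of the beta-catenin branch, AXIN2, LEF1 and TCF7, did not pass. AXIN2, a feedback inhibitor whose transcription the pathway drives, averaged 6.39 ± 2.23 CPM in pregnant and 4.72 ± 0.904 CPM in control endometrium, a log2 change of 0.44 ± 0.27 (edgeR adjusted p = 0.286; 0.106 to 0.626 over its alternatives). LEF1, a transcription factor that works with beta-catenin, was the most abundant of them at 193 ± 48.4 CPM in pregnant and 159 ± 62.3 CPM in control endometrium, a log2 change of 0.28 ± 0.26 (edgeR adjusted p = 0.486). TCF7, its relative known best from T cells, averaged 24.3 ± 5.06 CPM in pregnant and 24.3 ± 8.65 CPM in control endometrium, a log2 change of 0.00 ± 0.26. The deposited model of TCF7 is long, with 8629 bp in 28 exons, so this level and log2 change are uncertain. The T and NK cell marker sum was higher in the same pregnant libraries, at 63.7 to 126 CPM against 13.3 to 38.7 CPM in controls. LEF1 overlapped between the groups, with control replicate 2 at 247 CPM and control replicate 4 at 105 CPM.

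The other genes of the pathway were read from 4 lists. Of 24 matched genes that carry the signal inside the cell, all 24 were tested, 1 rose and 3 fell (16.7%, against 21.3% of all transcripts), with a median log2 change of −0.08. CSNK1E, CTNNBIP1 and TLE1 of this list were not matched. TLE3, a corepressor of TCF factors, rose by 0.52 ± 0.12 (edgeR adjusted p = 0.00984). TCF7L1, a TCF factor that mostly represses, fell by 0.96 ± 0.21 (adjusted p = 0.00804). DVL3, a Dishevelled protein that relays the receptor signal, fell by 0.42 ± 0.11 (adjusted p = 0.0194), and AMER1, which binds APC, fell by 0.83 ± 0.24 (adjusted p = 0.0315), both on the log2 scale. The call of AMER1 was lost in 6 of 17 alternatives (adjusted p 0.0523 to 0.093) and that of DVL3 in 1 (0.0626). Beta-catenin itself (CTNNB1) averaged 372 ± 26.2 CPM in pregnant and 325 ± 9.18 CPM in control endometrium and did not pass (log2 change 0.19, adjusted p = 0.217). Its groups did not overlap, with 350 to 401 CPM in pregnant and 316 to 337 CPM in control endometrium. Of all transcripts, 26.1% had groups without overlap in either direction.

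Of 8 tested genes known to be induced by WNT signals in several tissues, 1 rose and 1 fell (25%, near the 21.3% of all transcripts), with a median log2 change of 0.16. This list held 14 genes and was covered only in part. NKD1, NKD2, NOTUM, APCDD1 and ASCL2 were not matched, and LGR6 was not tested. RNF43, which removes Frizzled receptors from the surface and is itself a target of the pathway, fell by 0.89 ± 0.21 on the log2 scale (edgeR adjusted p = 0.0121). The adhesion receptor CD44, also abundant on immune cells, rose by 0.61 ± 0.19 (adjusted p = 0.0419), and its groups overlapped. This call was lost in 8 of 17 alternatives, library totals alone among them (adjusted p 0.0515 to 0.12 in those 8). In the beta-catenin-independent branch 1 of 11 tested genes rose and 2 fell (27.3%, against 21.3% of all transcripts), with a median of −0.27. VANGL2, CELSR1 and CELSR2 of that list were not matched. DAAM2, a formin downstream of Dishevelled, rose by 1.23 ± 0.22 (edgeR adjusted p = 0.00291), with 283 ± 52.5 CPM in pregnant and 120 ± 36.8 CPM in control endometrium. INVS, or inversin, fell by 0.65 ± 0.16 (adjusted p = 0.0154) and the planar polarity gene VANGL1 by 0.57 ± 0.17 (adjusted p = 0.0395). The call of VANGL1 was lost in 8 of 17 alternatives, 7 of them with a library left out (adjusted p 0.054 to 0.115 in those 8), and that of INVS in 1 (0.0538).

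Among 17 tested genes of ligand secretion and the cell surface, 1 rose and 2 fell (17.6%, against 21.3% of all transcripts), with a median log2 change of −0.26. GPC6, TRABD2A, CPZ and DKKL1 of that list were not matched, and KREMEN2, SOST and SOSTDC1 were not tested. Besides WLS, KREMEN1, a DKK receptor, fell by 0.54 ± 0.16 (edgeR adjusted p = 0.0361), a call lost when any of 6 libraries was left out (adjusted p 0.0583 to 0.0991). TSPAN12, a partner of FZD4 in norrin signalling, rose by 0.79 ± 0.19 (adjusted p = 0.0135), with 17.2 ± 3.61 CPM in pregnant and 9.94 ± 1.84 CPM in control endometrium. Norrin itself (NDP) had a log2 change of −0.27 (adjusted p = 0.488). RECK and ADGRA2, which present WNT7 ligands to Frizzled receptors in mouse brain vessels, had log2 changes of −0.26 and −0.26 (adjusted p = 0.277 and 0.261). CTNNB1, NDP, RECK and ADGRA2 lie outside the rule for named genes and were chosen with results known.

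**Figure D5:**
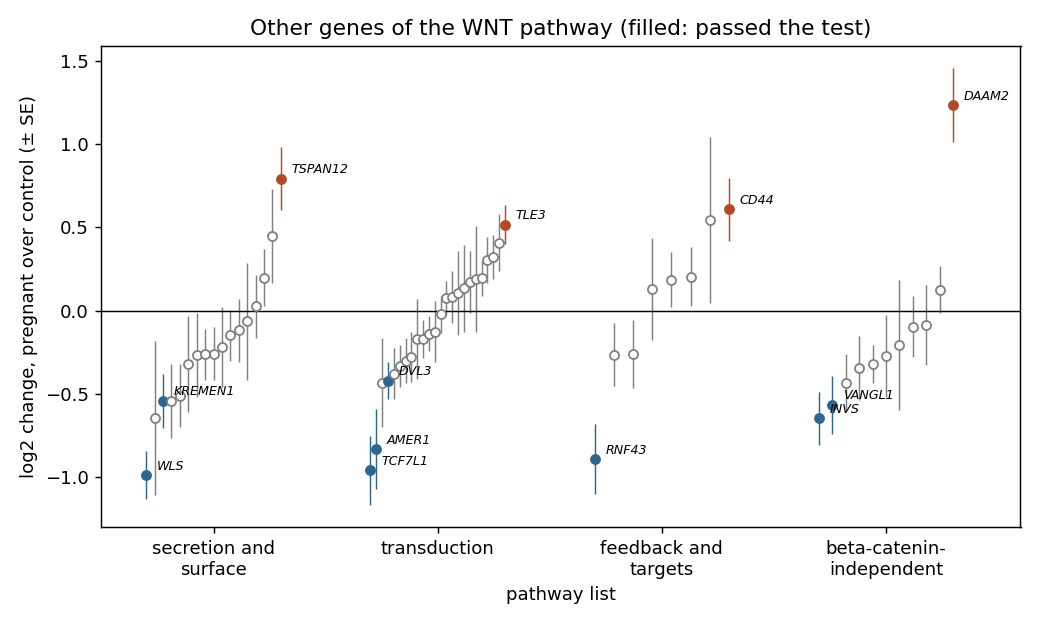
Log2 change, pregnant over control, with SE, of the tested genes in 4 lists of other WNT pathway genes; filled and labelled points passed the test, red for higher and blue for lower. In each list 1 gene rose, from TLE3 at 0.52 to DAAM2 at 1.23, and 1 to 3 genes fell, WLS at −0.99 being the lowest.

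Some members lie side by side in the deposited annotation. WNT10B and WNT1 are 7300 bp apart, WNT9A and WNT3A 25898 bp, and WNT3 and WNT9B 66515 bp, and in each pair at least 1 gene had too few reads to be tested. Around the members that passed, calls went in both directions. Within 250 kb of FZD2, 13 genes were tested, with 0 higher and 2 lower, and within 250 kb of SFRP5 9 were tested, with 1 higher and 2 lower. Within 250 kb of FZD6, 1 of 4 tested genes was higher and 0 were lower. Around FZD3, 0 of 6 were higher and 2 lower, and around LGR4 0 of 3 were higher and 1 lower. Around FZD4, 1 of 3 was higher and 0 lower, and around WNT2 1 of 2 was higher and 0 lower. Around FZD5, 1 of 6 was higher and 1 lower, and around DKK3 and FZD7 none of 2 and 5 passed. Of all transcripts, 11.2% were higher and 10.1% lower.

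The calls differed in how firmly they held. WNT7B, WNT2, FZD2, FZD5 and LGR4 passed in all 17 alternatives run. DKK3 passed in 15 of 17, FZD6 in 14, FZD7 in 13, FZD3 in 12 and FZD4 in 10, and SFRP5 in 11 of the 16 that could test it. Without pregnant replicate 2, 1 member was higher and 5 were lower. Every one of the 11 kept its direction in all of these alternatives.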

How the data were processed

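Poly(A) RNA-seq counts of 8 libraries were analysed. The deposited tables hold raw read counts per transcript, which the authors made from a merged assembly on Sscrofa10.2. CASAVA 1.6, TopHat 1.4, Cufflinks 1.3 and DESeq were used by them, per the submitters' processing notes, and how reads were counted is not given in the sources used here. Symbols came by Entrez ID from a RefSeq gene table of Sscrofa11.1, used for names only, and matched 16270 of 21064 genes. Coordinates are the authors' on Sscrofa10.2, counted from 1, and lengths are exonic.

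The test was edgeR's quasi-likelihood F test (version 4.0.16, R 4.3.3; TMM scaling, robust fit, no covariate) on transcripts kept by filterByExpr at a minimum of 10 counts, with Benjamini-Hochberg adjustment over 18783 transcripts and a threshold of 0.05. The filter left out 5356 transcripts. SE are implied by the F statistic. CPM use TMM-scaled library sizes, and CPM per kb divide them by exonic length. DESeq2 1.42.0 and limma 3.58.1 (voom) served as alternatives. Scripts were tested on simulated counts. Read counts limit precision, most of all below about 1 CPM, and PCR duplicates are not independent molecules. Shares and sums over members have no test.

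The members and lists were chosen with earlier results of these data known. Given per library were members that passed, and members not called with at least 1 CPM and an absolute log2 change of at least 1, a condition that 0 members met. WNT5B, DKK1, FRZB and WIF1 were given per library after their values were seen, since 1 control library or the highest level set them apart. Of each pathway list, up to 4 members that passed were named. Transcripts of a gene share reads in shared exons, and FZD3 has 2 and PORCN 4. No sequences were used here.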

Additional observations from a re-analysis of the deposited data

Results flagged for a closer look

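In 4 of 78 groups of 4 animals a library lay far from the other 3, where chance gives about 1 in 20, or 3.9. WNT7A in pregnant replicate 1 was 17.6 CPM, with the other pregnant libraries at 8.97 to 9.53 CPM. WNT4 in the same library was 2.83 CPM, with the others at 1.71 to 1.75 CPM. WIF1 in control replicate 2 was 6.80 CPM, with the other controls at 0.814 to 1.26 CPM. SFRP1 in control replicate 4 was 2.06 CPM, with the other controls at 1.12 to 1.20 CPM. None of these 4 genes passed the test with all libraries.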

How the results depend on the processing

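Under 17 alternatives the members gave 652 log2 values, of which 583 kept their direction and side of the threshold, 26 of 6 members that passed no longer did, 4 of FRZB, WIF1 and WNT5B passed, and 39 of 10 members that had not passed changed sign. The count of members called higher was 1 with library totals alone, and ran from 1 to 3 when a library was left out, while that called lower ran from 5 to 8. Over all transcripts 1898 were lower, against 3284 with library totals alone and 1265 without pregnant replicate 2. Replicate numbers gave no clear sign of pairing the animals, though these values cannot exclude it. Deviations of same-numbered libraries correlated at 0.186, −0.0932, −0.0314 and 0.0854. Libraries 1 to 4 of the pregnant group were most like control replicates 1, 1, 2 and 2. With the replicate number as a block, 1 member was higher and 9 were lower, FZD4 being the call lost (0.66, edgeR adjusted p = 0.0692).

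Signs changed for small values. RSPO3 was −0.0292 with limma voom, and with library totals alone SFRP1 was −0.0939 and WIF1 −0.15. TCF7 was 0.0162 with RLE, 0.0131 with upper-quartile scaling, 0.0158 with DESeq2, 0.0638 with voom, 0.0224 without a filter, 0.005 at a minimum count of 50, 0.0113 with 1 transcript per gene and 0.0458 with the block. With a library left out the log2 change ran from −0.405 to 0.0282 for DKK2, −0.242 to 0.151 for FZD10, −0.334 to 0.183 for FZD9, −0.211 to 0.0274 for LRP6, −0.0685 to 0.492 for RSPO3, −0.102 to 0.305 for SFRP1, −0.209 to 0.165 for TCF7, −0.279 to 1.32 for WIF1, −0.219 to 0.0194 for WNT2B and −0.497 to 0.0153 for WNT8B. The causes were not tested. Of 12 other pathway genes that passed, TCF7L1, TLE3, RNF43, DAAM2, WLS and TSPAN12 (6) did so in every alternative.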
